A study of Mus musculus with 2 samples.

Results

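The monocyte and T cell attracting chemokines described here are 7 mouse genes, measured in microglia (resident brain macrophages) of the hypothalamus: Ccl2, Ccl7, Ccl12, Ccl5, Cxcl10, Ccl9 and Cxcl16. They were chosen by name as attractants of monocytes and T cells, with earlier results of these data known. All 7 were among the 31053 genes listed for both libraries, each with at least 1 UMI (unique molecular identifier, the tag that counts 1 captured RNA molecule) in each. The study injected young wild-type mice with plasma protein that carried a dye, and 20 hours later sorted microglia from their hypothalamus by fluorescence. Microglia that carried the dye (plasma-positive) and microglia that did not (plasma-negative) each gave 1 droplet library made with the Chromium 3' v3.1 kit, from several mice that had been pooled. Both groups shared genotype, age class, injection and time, and differed in the sort. With 1 library per group there was no test: every interval below is a 95% interval for counting error only, and differences between mice, sorts or library preparations are not in it. Cells with 500 or more UMIs and 300 or more genes were kept where mitochondrially encoded genes took no more than 10% of the UMIs. Levels are given as CPM, a gene's UMIs per 1000000 UMIs of the library, counted near the 3' end and not corrected for gene length.

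The plasma-negative library kept 9860 cells with 34534518 UMIs (median 3270.5 per cell), and the plasma-positive library 10362 cells with 41984977 UMIs (median 3753). The median mitochondrial share was 1.08% in the plasma-negative and 1.27% in the plasma-positive library. All 11 microglia markers, among them P2ry12, Tmem119 and Cx3cr1, had a UMI in 64.4% to 99.6% of the plasma-negative cells and 68.0% to 99.8% of the plasma-positive ones, so the labelled cell type was present. Of 12 T or NK cell markers, 8 were at 0 in both libraries (Cd3e, Cd3g, Trac, Nkg7, Gzma, Gzmb, Ncr1 and Il2rb), and the list summed to 3 UMIs in each library. Markers of border-associated macrophages summed to 136 and 295 UMIs (3.94 and 7.03 CPM), with Lyve1 at 0, and those of monocytes to 262 and 533 UMIs (7.59 and 12.7 CPM), with Ly6c2 and Chil3 among those at 0 and Ms4a4c at 129 and 372 of the UMIs (the other monocyte markers summed to 133 and 161), in the plasma-negative and plasma-positive library. No cell type that should lack these chemokines was at hand in number, so no share of cells with a UMI from free RNA could be set beside the shares given here.

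Chemokines are small secreted proteins that bind receptors on leukocytes and steer them along a gradient. CCL2, CCL7 and the mouse protein CCL12 bind CCR2 and are known for drawing monocytes out of the blood. CCL5 draws T cells and other leukocytes, CXCL10 binds CXCR3 and CXCL16 binds CXCR6, receptors carried by T cells among others, and CXCL16 is made as a membrane-bound protein that proteases shed. CCL9 binds CCR1 on myeloid cells. In macrophages, type I and II interferon and NF-kB signalling are known inducers of several of these genes, Cxcl10 being a standard interferon-inducible gene.

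All 7 genes are annotated as protein-coding (GENCODE M21, build GRCm38, since the files name no build). Ccl2, Ccl7 and Ccl12 lie near each other on the plus strand of chromosome 11, at 82035571 to 82037453, 82045712 to 82047525 and 82101845 to 82103400, with Ccl11 between the last pair. Ccl5 (83525778 to 83530518) and Ccl9 (83572919 to 83578636) follow on the minus strand of the same chromosome, within a cluster that also holds Ccl6, Ccl3 and Ccl4. Cxcl16 is on chromosome 11 too, at 70453983 to 70459984 on the minus strand, and Cxcl10 is on chromosome 5, at 92346638 to 92348889 on the minus strand. Exons of Cxcl10 overlap those of Art3, and exons of Cxcl16 those of Zmynd15, in each case on the opposite strand. Art3 was counted at 18 and 19 UMIs and Zmynd15 at 97 and 131 UMIs in the plasma-negative and plasma-positive library, and whether counting used strand is not given in the sources used here. No 50-base stretch in the last 500 bases of any of the 7 genes' transcripts was shared with another gene.

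RefSeq promoters (GRCm38.p6) were matched for 3 of the 7 genes, Ccl12, Cxcl10 and Ccl9. All 3 are shown, and none was at hand for the other 4 genes. These 3 genes were distributed differently over cells, and a link between motifs and distribution was not tested. Cxcl10 was very rare, with very high counts in a few of its cells, Ccl12 was common with a high tail, and Ccl9 was common and low. Each sequence is the 250 bases before the annotated start, 5′ to 3′ on the gene's strand, at chr11:82101595-82101844 (plus) for Ccl12, chr5:92348890-92349139 (minus) for Cxcl10 and chr11:83578637-83578886 (minus) for Ccl9. Capitals mark matches on either strand to an interferon response element core (GAAA, any 2 bases, GAAA), an NF-kB motif (GGG, any 5 bases, CC), an AP-1 motif (TGANTCA) and a TATA box (TATAAA).
Ccl12: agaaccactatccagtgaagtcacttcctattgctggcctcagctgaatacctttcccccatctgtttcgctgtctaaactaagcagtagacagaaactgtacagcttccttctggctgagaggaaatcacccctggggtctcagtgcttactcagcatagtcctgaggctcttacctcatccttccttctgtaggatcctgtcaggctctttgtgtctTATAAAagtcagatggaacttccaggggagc
Cxcl10: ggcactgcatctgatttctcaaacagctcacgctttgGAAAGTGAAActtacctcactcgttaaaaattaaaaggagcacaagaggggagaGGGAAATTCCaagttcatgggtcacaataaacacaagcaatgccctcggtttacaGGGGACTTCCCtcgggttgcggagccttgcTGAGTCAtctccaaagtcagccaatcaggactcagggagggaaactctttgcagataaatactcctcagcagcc
Ccl9: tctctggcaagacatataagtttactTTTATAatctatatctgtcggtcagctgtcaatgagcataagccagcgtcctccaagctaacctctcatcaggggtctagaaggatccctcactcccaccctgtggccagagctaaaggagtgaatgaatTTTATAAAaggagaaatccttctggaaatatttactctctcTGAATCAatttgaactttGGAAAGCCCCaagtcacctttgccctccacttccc
Cxcl10 held the interferon core 213 to 204 bases before the start, NF-kB matches at 159 to 150, 104 to 95 and 103 to 94 (the last pair overlap), and an AP-1 match at 74 to 68. Ccl12 held a TATA box 31 to 26 bases before the start and none of the other 3 motifs. Ccl9 held an AP-1 match at 53 to 47, an NF-kB match on the other strand at 35 to 26, and TATA matches at 92 to 87 and, on the other strand, at 94 to 89 and 224 to 219. Among 32851 promoters of this length, 2.98% held the interferon core, 45.8% the NF-kB motif, 6.75% the AP-1 motif and 12.4% the TATA box, and 1.01% held both the interferon and the NF-kB motif, as Cxcl10 did. These are matches of letters and no statement about binding.

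Each of the 7 chemokines was higher in plasma-positive than in plasma-negative microglia, and the interval of each ratio over all kept cells lay above equal levels. For Ccl9 the log2 interval reached 0 without the cells of highest doublet score (-0.0011 to 0.15) and when cells were thinned to 1000 UMIs (-0.10 to 0.19), as it did for thinned Ccl7 (-1.60 to 2.75). The size differed by gene: 4 of the 7 were 2-fold or more higher (Ccl5, Ccl2, Ccl7 and Ccl12), Cxcl10 lay between, and Cxcl16 and Ccl9 were close to equal. In the plasma-positive library Ccl12 had the highest level (387 CPM), followed by Ccl9 (85.9), Cxcl16 (64.2), Ccl5 (24.2), Cxcl10 (14.8), Ccl2 (12.2) and Ccl7 (0.929). The plasma-negative order had Cxcl10 (8.95) and Ccl2 (3.33) above Ccl5 (2.58), and the counting intervals of Ccl2 and Ccl5 overlapped there. Because capture near the 3' end differs between genes, these orders describe counts and not transcript numbers.

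Read against all genes, such ratios were uncommon. Because the 7 chemokines were chosen with earlier results of these data known, the comparison is a description. Of 9525 genes with a mean level of 5 CPM or more, 0.304% had a level in the plasma-positive library at least 2-fold above that in the plasma-negative one and 0% a level at least 2-fold below it, against 3 of the 6 chemokines at that level (Ccl2, Ccl12 and Ccl5) and none lower. Ccl7, at a mean of 0.595 CPM, stayed below the minimum. At 1.5-fold, 0.472% of genes were higher and 0.042% lower, against 4 of the 6 chemokines higher, Cxcl10 being the fourth. By log2 ratio, Ccl5 ranked 2, Ccl2 9, Ccl12 23, Cxcl10 37, Cxcl16 188 and Ccl9 1174 of the 9525. The median log2 ratio of the 7 chemokines was 1.13, beside -0.04 over all 9525 genes.

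**Figure D1:**
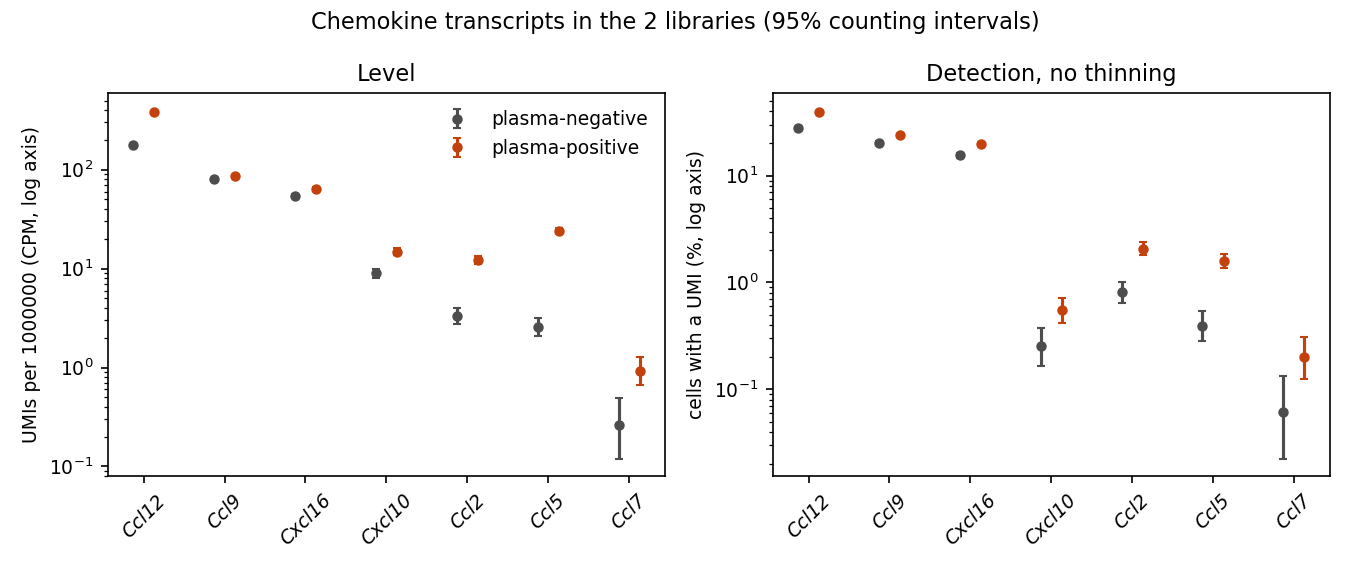
Level of each chemokine in the 2 libraries (left, CPM on a log axis, with Poisson counting intervals) and share of cells with at least 1 of its UMIs (right, percent on a log axis, with exact binomial intervals). Ccl12, Ccl9 and Cxcl16 lie at 53.9 CPM or more in both libraries, while Ccl2, Ccl5, Cxcl10 and Ccl7 lie at 24.2 CPM or less and were found in 2.07% of cells or fewer.

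Among the ligands of CCR2, Ccl12 carried nearly all of the counts. It had 6117 UMIs in the plasma-negative and 16236 in the plasma-positive library, or 177 CPM (173 to 182) against 387 CPM (381 to 393), and the log2 ratio was 1.13 (1.08 to 1.17). Cells with a UMI made up 27.7% of the plasma-negative and 39.4% of the plasma-positive library. Thinned to 1000 UMIs per cell, with 796 and 603 shallower cells left out, the shares were 11.7% and 18.6%. Both more cells with the gene and more molecules in them went with the higher level: positive cells held 2.24 UMIs on average in the plasma-negative and 3.97 in the plasma-positive library. The upper tail differed most. Cells with more than 5 Ccl12 UMIs numbered 120 and 532, cells with more than 20 numbered 21 and 144, and cells above 5 held 31.2% and 61.7% of all Ccl12 UMIs.

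Ccl2, the best known monocyte attractant, was detected in few cells. It had 115 UMIs over 80 plasma-negative cells (0.811%) and 512 over 215 plasma-positive ones (2.07%), or 3.33 CPM (2.75 to 4.0) against 12.2 CPM (11.2 to 13.3), and the log2 ratio was 1.87 (1.58 to 2.18). At 1000 UMIs per cell the shares were 0.276% and 0.728%. Positive cells held 1.44 and 2.38 UMIs on average, but 2 plasma-negative and 17 plasma-positive cells held more than 5, and the highest held 12 and 55. Ccl7, which lies next to Ccl2, was rarer still, with 9 UMIs over 6 plasma-negative cells and 39 over 21 plasma-positive ones, or 0.261 CPM (0.119 to 0.495) against 0.929 CPM (0.661 to 1.27). Its log2 ratio of 1.83 had an interval of 0.76 to 3.06, and thinned to 1000 UMIs per cell it was 0.48, so its size was not determined at this depth.

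Ccl5 showed the widest gap of the 7. It had 89 UMIs over 39 plasma-negative cells (0.396%) and 1015 over 165 plasma-positive ones (1.59%), or 2.58 CPM (2.07 to 3.17) against 24.2 CPM (22.7 to 25.7), and the log2 ratio was 3.23 (2.92 to 3.56). At equal depth the shares were 0.188% and 0.646%. The counts were concentrated: 11 plasma-positive cells held 50% of the UMIs, 14 cells had more than 20 each, and the highest had 75. In the plasma-negative library a single cell had more than 20, with 26 UMIs, and without the highest cell of each library the log2 ratio was 3.62. Thinned to 1000 UMIs per cell it was 2.44 (1.89 to 3.03), below the interval for all UMIs. Ccl5 is also a standard T and NK cell gene, but 0 of 39 and 0 of 165 Ccl5-positive cells held a UMI of any of the 12 T or NK markers, which allows shares of up to 9.03% and 2.21% (exact binomial) of cells with such a UMI, not of cells that express one. Markers found in no more than 1% of the cells of each library were called rare, which left out Mrc1 and Ms4a4c here. A UMI of any of the 7 rare border-associated macrophage markers was in 11 of the 165 plasma-positive cells. One of any of the 7 rare monocyte markers was in 5. Over all plasma-positive cells, the most frequent single rare marker of each type was in 0.309% (Folr2) and 0.618% (Ccr2). The share of all cells with any of the 7 is not given here and can be higher than these values. Cells with 2 or more rare markers of any other cell type numbered 6 and 18, and without them the log2 ratio was 3.14. Of these 6 and 18 cells, 0 and 4 held Ccl5, the 4 with 62 UMIs of it. Apart from this value, the part of border-associated macrophage and monocyte markers in the Ccl5 level was not tested.

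Cxcl10, the CXCR3 ligand, was found in the fewest cells after Ccl7, at the highest mean count per positive cell. It had 309 UMIs over 25 plasma-negative cells (0.254%) and 621 over 57 plasma-positive ones (0.550%), or 8.95 CPM (7.98 to 10.0) against 14.8 CPM (13.7 to 16.0), and the log2 ratio was 0.73 (0.53 to 0.93). Positive cells averaged 12.4 and 10.9 UMIs, but 13 of the 25 and 37 of the 57 held a single UMI, and 8 and 13 held more than 5. A single plasma-negative cell with 170 UMIs held 55.0% of that library's Cxcl10, and the highest plasma-positive cell, with 147, held 23.7%. Without the highest cell of each library the log2 ratio was 1.49, outside the counting interval, and without the 10 highest of each it was 1.97. The counting intervals treat molecules as independent, which the crowding into few cells does not meet, so they are too narrow for Cxcl10 and Ccl5, and also for Ccl12 and Ccl2, which were uneven over cells too. Ccl12 left its interval at a log2 ratio of 1.20, both thinned and without the 10 highest cells.

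Cxcl16 and Ccl9 behaved otherwise: both were found at low counts in many cells and differed little. Cxcl16, the CXCR6 ligand, had 1863 and 2695 UMIs, or 53.9 CPM (51.5 to 56.5) against 64.2 CPM (61.8 to 66.7), and the log2 ratio was 0.25 (0.17 to 0.34). It was detected in 15.5% and 19.9% of cells, and in 4.90% and 5.54% at equal depth. Ccl9, a CCR1 ligand, had 2771 and 3608 UMIs, or 80.2 CPM (77.3 to 83.3) against 85.9 CPM (83.2 to 88.8), and the log2 ratio was 0.10 (0.03 to 0.17). Its detection was 20.2% and 23.8%, and 7.27% and 7.56% at equal depth. The highest cells had 9 and 13 Cxcl16 UMIs and 13 and 13 Ccl9 UMIs.

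How uneven each gene was over cells of equal depth is shown by its Fano factor, the variance over the mean of the thinned counts, which is 1 for molecules spread at random. For Ccl9 it was 1.12 in the plasma-negative and 1.10 in the plasma-positive library, and for Cxcl16 1.06 and 1.08. Ccl12 reached 3.29 and 6.0, Ccl2 1.77 and 4.68, Ccl5 4.62 and 7.21, and Cxcl10 17.1 and 15.2. Ccl7, on 4 and 6 thinned UMIs, was at 1.5 and 0.999. The Fano factor was higher in the plasma-positive library for Ccl12, Ccl2 and Ccl5, and slightly for Cxcl16, and lower for Cxcl10, Ccl9 and Ccl7.

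**Figure D2:**
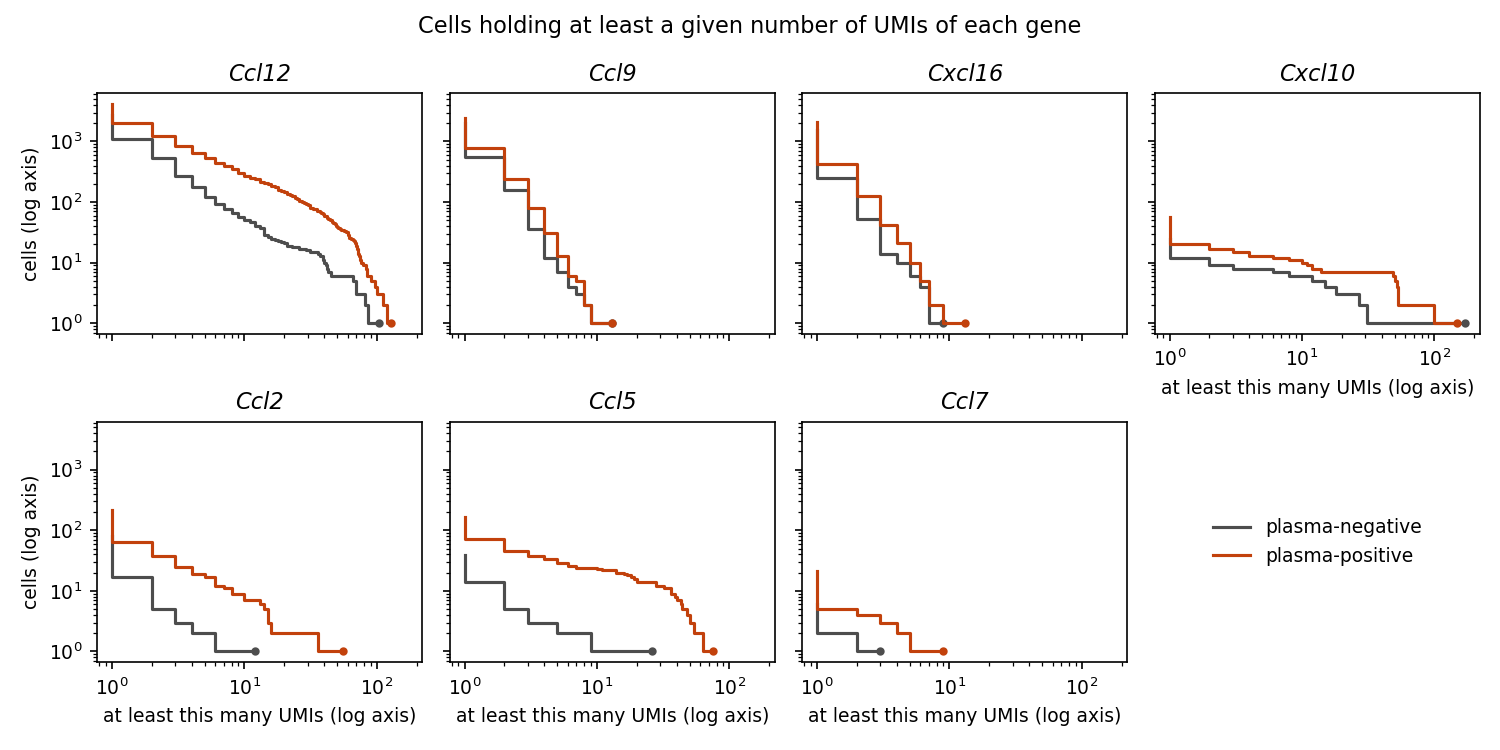
Number of cells (y, log axis) with at least a given number of UMIs (x, log axis) of each chemokine, drawn as steps for the 2 libraries. For Ccl12, 532 plasma-positive and 120 plasma-negative cells had more than 5 UMIs, while Ccl9 lines end at 13 UMIs in both libraries.

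Most cells held few of the 7 genes. At least 1 was detected in 4841 plasma-negative cells (49.1%) and 6235 plasma-positive cells (60.2%), mostly Ccl12, Ccl9 or Cxcl16. At least 1 of the 4 rare genes (Ccl2, Ccl7, Ccl5 and Cxcl10) was in 142 (1.44%) and 404 (3.9%) cells, and 2 or more of these in 7 and 45 cells. Cells with 4 or more of the 7 numbered 15 and 62. More than 5 UMIs of each of 2 chemokines was seen in 8 and 41 cells.

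Ccl2, Ccl5 and Cxcl10 were found in the same cells at higher shares than over all cells. Of Cxcl10-positive cells, 3 of 25 plasma-negative (12%, 2.55 to 31.2) and 22 of 57 plasma-positive (38.6%, 26.0 to 52.4) also held Ccl2, against 0.783% and 1.87% of Cxcl10-negative cells. Depth raises any co-detection, and at 1000 UMIs per cell the plasma-positive share was 37.5% (9 of 24) against 0.637%. The plasma-negative one rested on 1 cell, 1 of 14 (7.14%, 0.181 to 33.9) against 0.265%. Ccl5 was in 2 of 25 and 10 of 57 (17.5%) Cxcl10-positive cells, against 0.376% and 1.5% without Cxcl10. Ccl2 and its neighbour Ccl7 also met: 2 of 6 and 11 of 21 Ccl7-positive cells (52.4%, 29.8 to 74.3) held Ccl2, against 0.792% and 1.97% of the others. Ccl5 and Ccl7 shared no cell in either library. That is 0 of 39 plasma-negative and 0 of 165 plasma-positive Ccl5-positive cells, which allows a share of up to 9.03% and 2.21%, where 0.0611% and 0.206% of Ccl5-negative cells held Ccl7.

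By all UMIs, Ccl12 was present in most cells that held Ccl2 or Cxcl10. Among Ccl2-positive cells it was in 63.8% (plasma-negative) and 71.2% (plasma-positive), against 27.4% and 38.8% of the others. Among Cxcl10-positive cells it was in 68.0% and 75.4%. For Ccl5-positive cells the shares were less alike: 13 of 39 (33.3%, 19.1 to 50.2) held Ccl12 in the plasma-negative library, where 27.7% of the others did, and 104 of 165 (63.0%, 55.2 to 70.4) in the plasma-positive library, where 39.0% of the others did. At 1000 UMIs per cell, Ccl12 was found with Ccl2 in 7 of 25 (28.0%) plasma-negative cells that held Ccl2 and 44 of 71 (62.0%) plasma-positive ones, against 11.6% and 18.3%. For Cxcl10 it was in 8 of 14 (57.1%) and 15 of 24 (62.5%), against 11.6% and 18.5%, and for Ccl5 in 2 of 17 (11.8%) and 21 of 63 (33.3%), against 11.7% and 18.5%. Cells with high counts of Cxcl10 held Ccl12 in both libraries: all 8 plasma-negative cells with more than 5 Cxcl10 UMIs, 6 of them with more than 5 of Ccl12, and all 13 plasma-positive ones, 9 of them with more than 5. In the plasma-positive library 9 of those 13 also held Ccl2. Of the 17 plasma-positive cells with more than 5 Ccl2 UMIs, 16 held Ccl12. Of the 29 plasma-positive cells with more than 5 Ccl5 UMIs, 24 held Ccl12, 9 held Ccl2 and 0 held Ccl7.

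Ccl9 was spread almost evenly over cells with and without Ccl12 or Cxcl16 once depth was equal. At 1000 UMIs, Ccl12 was in 12.4% of Ccl9-positive and 11.6% of Ccl9-negative plasma-negative cells, and in 17.6% and 18.7% of plasma-positive cells. Cxcl16 was in 5.46% and 4.85% of plasma-negative and in 5.96% and 5.51% of plasma-positive cells with and without Ccl9. For Cxcl16, Ccl12 was in 22.9% (19.4 to 26.7) of plasma-positive cells with it against 18.3% of those without, and in the plasma-negative library in 12.6% (9.67 to 16.1) against 11.6%.

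**Figure D3:**
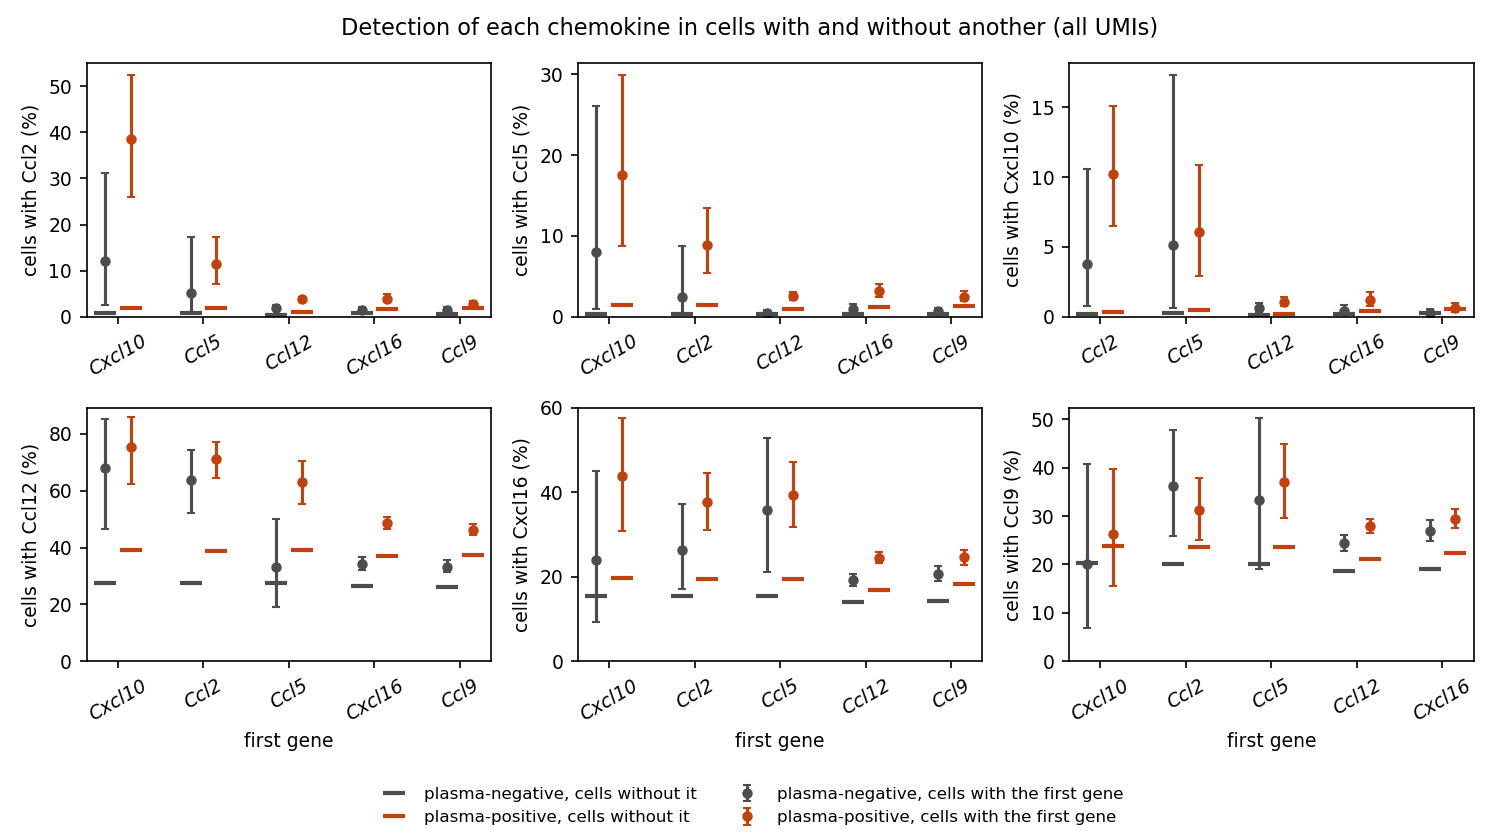
Share of cells (percent) with a UMI of the gene on each y axis, among cells with (points, exact binomial intervals) and without (bars) the gene named on the x axis, for the 2 libraries and all UMIs. Points for Ccl2 among Cxcl10-positive cells stand at 12% and 38.6% above bars at 0.783% and 1.87%, while Ccl9 lies near its bars among Cxcl10-positive cells (20.0% and 26.3%).

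Single cells with the highest counts showed more than 1 combination. The plasma-negative cell with 170 Cxcl10 UMIs, 3.65% of its 4661 UMIs, also had the highest count of Ccl2 (12) and of Ccl5 (26) of its library, with 66 UMIs of Ccl12, 78 of Ccl3 and Ccl4, and 10 of the 11 microglia markers. The plasma-positive cell with most Ccl2 had 55 UMIs of it among 3580, with 5 of Ccl7, 10 of Ccl12 and 0 of Ccl5 and Cxcl10. It also had 106 of Ccl3 and Ccl4, chemokine genes of the chromosome 11 cluster that holds Ccl5 and Ccl9. The next Ccl2 cell had 36 UMIs of it beside 91 of Ccl12, 50 of Ccl5 and 99 of Cxcl10, and 13 of Ccl3 and Ccl4. The plasma-positive cell with most Ccl5 had 75 UMIs of it, with 1 of Ccl12, 2 of Cxcl16 and 0 of Ccl2 and Cxcl10. The plasma-positive cell ranked 4 by Ccl2 had 15 UMIs of it and 21 of Ccl12, but 0 of Cxcl10 and 0 of Ccl3 and Ccl4. Among the cells named here, high Ccl2 was thus found with Ccl3 and Ccl4 but no Cxcl10, with all 3, or with none of them. Of the 17 plasma-positive cells with more than 5 Ccl2 UMIs, 5 held Cxcl10. High Ccl5 was found both with and without Cxcl10.

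To describe these settings, each cell was thinned to 1000 UMIs and 22 interferon response genes that are not among the 7 were summed. Between the libraries, 18 of the 22 genes reached 5 CPM and all 18 were higher in the plasma-positive library, 12 by 2-fold or more, with a median log2 ratio of 1.28. Over all 9525 genes at that level, 0.304% were 2-fold or more higher and the median was -0.04. The list was chosen with earlier results of these data known, so its counts are a description. Ifi207 was at 1.97 and 10.7 CPM, Ifi27l2a at 19.5 and 90.9, Ifitm3, which restricts virus entry, at 13.1 and 58.1, and Oasl2 at 3.30 and 12.9. Of Cxcl10-positive cells, 10 of 23 plasma-negative (43.5%) and 27 of 51 plasma-positive (52.9%) had 3 or more UMIs of this list, against 2.32% and 6.75% of cells without Cxcl10. Ccl2-positive cells reached it in 6 of 80 (7.50%) and 83 of 214 (38.8%), against 2.38% and 6.28%. For Ccl5 it was 5 of 39 (12.8%) and 47 of 163 (28.8%), against 2.38% and 6.62%.

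Ccl12 went with the interferon list by amount. Cells with any Ccl12 reached 3 UMIs of the list in 4.20% and 11.9%, cells without it in 1.67% and 3.46%, and cells with more than 5 Ccl12 UMIs in 23.3% and 41.5%. Ccl9 and Cxcl16 stood apart little: 3.27% and 7.66% of Ccl9-positive cells, against 2.19% and 6.76%, and 3.53% and 9.54% of Cxcl16-positive cells, against 2.21% and 6.31%. The sum of Ccl3 and Ccl4 reached 3 UMIs in 6.25% and 7.48% of Ccl2-positive cells, against 0.167% and 0.157% of those without Ccl2. Of the 21 plasma-positive cells with Ccl7, 4 did so (19.0%). Cxcl10-positive cells reached it in 2 of 23 (8.70%) and 4 of 51 (7.84%), against 0.199% and 0.278% of those without Cxcl10. For Ccl5 it was 1 of 39 (2.56%) and 5 of 163 (3.07%), against 0.211% and 0.271%.

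Apoe, the lipid carrier protein that reactive microglia are known to make, was also looked at. In the plasma-positive library, cells with 3 or more of its UMIs at equal depth were 37.4% of Ccl5-positive cells against 5.76% of the others, 19.6% against 5.99% for Ccl2, 12.3% against 4.69% for Cxcl16, and 9.38% against 4.09% for Ccl12. For Ccl9 it was 5.62% against 6.52%. Cxcl10-positive cells reached it in 23.5% against 6.20%, and Ccl7-positive cells in 8 of 21 (38.1%) against 6.22%. In the plasma-negative library the shares were 10.3% (4 of 39) against 1.58% for Ccl5, 3.75% (3 of 80) against 1.60% for Ccl2, 2.26% against 1.49% for Cxcl16, 1.55% against 1.65% for Ccl12 and 1.66% against 1.61% for Ccl9, and 0 of 23 Cxcl10-positive cells, which allows up to 14.8%, against 1.63%.

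**Figure D4:**
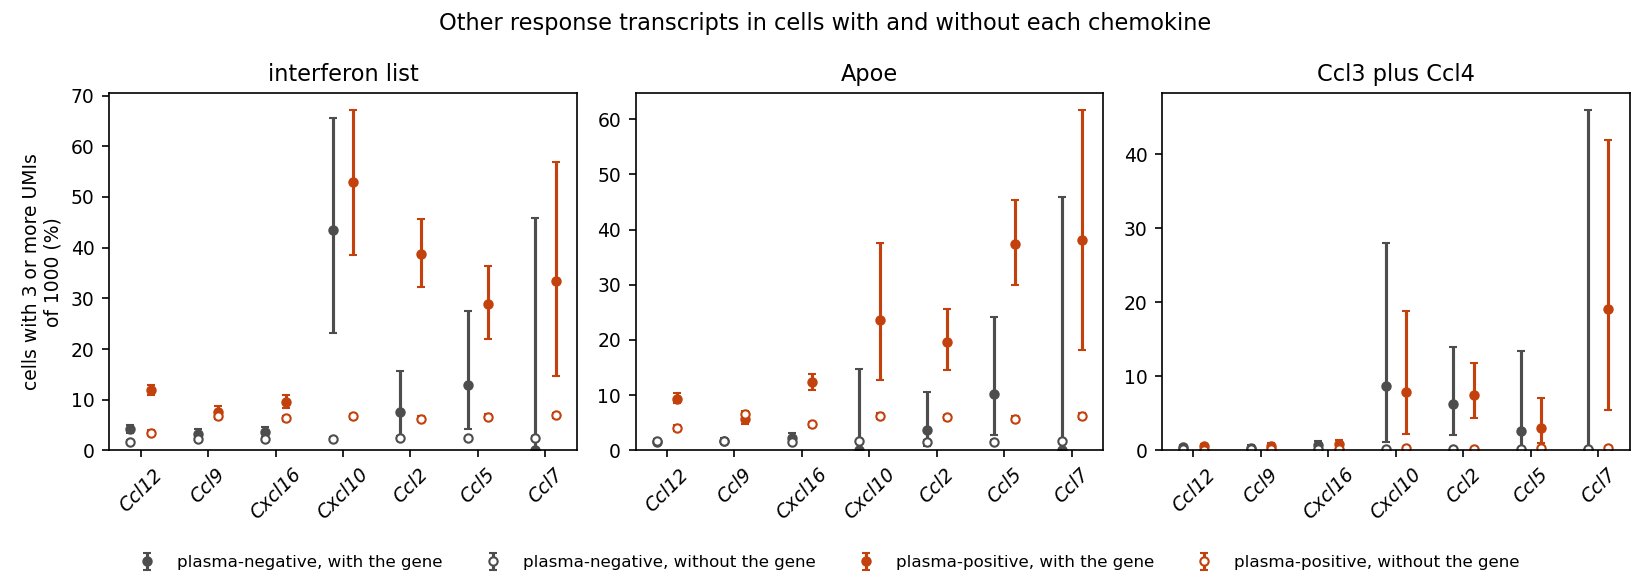
Share of cells (percent) with 3 or more UMIs of the interferon list, of Apoe, or of Ccl3 and Ccl4, after thinning to 1000 UMIs, among cells with (filled points) and without (open points) each chemokine, with exact binomial intervals. For the interferon list the filled plasma-positive points stand at 52.9% for Cxcl10 and 38.8% for Ccl2 and the open ones at 6.75% and 6.28%, and at 7.66% for Ccl9 against 6.76%.

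Sorting the molecules by the cell's setting gave a different picture for each gene. In the plasma-positive library 677 cells had 3 or more UMIs of the interferon list but not of Ccl3 and Ccl4, and these held 87.4% of the Cxcl10, 47.9% of the Ccl5, 45.5% of the Ccl2 and 36.4% of the Ccl12 molecules of the thinned cells, by all UMIs. A set of 26 cells with 3 or more UMIs of Ccl3 and Ccl4 but not of the interferon list held 21.6% of the Ccl2 (110 UMIs, 55 of them in 1 cell) and 0.197% of the Ccl5. Cells with neither held 62.0% of Ccl12, 49.9% of Ccl5, 32.0% of Ccl2 and 6.24% of Cxcl10. In the plasma-negative library cells with neither held 82.8% of Ccl12, 78.3% of Ccl2, 60.7% of Ccl5 and 9.80% of Cxcl10, while 4 cells with both held 55.9% of Cxcl10, 170 of those 171 UMIs in 1 cell. Classes cut from such sums are ranges and not cell types.

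Within groups of cells by interferon sum, Ccl2, Ccl12 and Ccl5 were still higher in the plasma-positive library. Over all kept cells, plasma-positive CPM was 3.66 times plasma-negative CPM for Ccl2, 2.18 times for Ccl12 and 9.38 times for Ccl5. With all its cells counted, each group gave a lower ratio for each of these genes. The group of 3 or more had no upper limit. Where the list was at 0 (6212 and 6105 cells), plasma-positive CPM over plasma-negative CPM was 2.49 (1.89 to 3.33) for Ccl2, 1.53 (1.47 to 1.60) for Ccl12, 6.39 (4.29 to 9.87) for Ccl5 and 1.07 (1.01 to 1.14) for Ccl9. For Cxcl10 it was 3.13 (1.39 to 7.95) on 8 and 28 UMIs, and 0.857 (0.460 to 1.60) where the list was 1 to 2. Where it was 3 or more (220 and 682 cells), Ccl12 was at 1246 and 2006 CPM, a ratio of 1.61 (1.51 to 1.72), and Ccl2 at 22.9 and 79.2 CPM, a ratio of 3.45 (2.16 to 5.84). Cxcl10 went the other way there, at 333 and 186 CPM, a ratio of 0.559 (0.483 to 0.648), which rested on 1 cell: without the highest Cxcl10 cell of each library it was 1.07 (0.859 to 1.33). Without those cells the ratio in the same group was 15.5 for Ccl5, against 4.0 with them, and 8.78 for Ccl2. A level of 0 in 1000 UMIs does not show that a cell lacked the response.

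Cells with Apoe were a group in which Ccl12 and Cxcl16 differed more than in cells without it. Apoe itself was at 171 and 1190 CPM in the plasma-negative and plasma-positive library (log2 ratio 2.80). The group of 3 or more Apoe UMIs had no upper limit, so Apoe levels in it need not be alike between the libraries. In cells with 3 or more Apoe UMIs (147 and 614), Ccl12 was at 241 and 1586 CPM, a ratio of 6.59 (5.55 to 7.89), and Cxcl16 at 74.2 and 138 CPM, a ratio of 1.85 (1.34 to 2.62). In cells with 0 Apoe (8350 and 7967), the ratios were 1.55 (1.5 to 1.60) for Ccl12 and 1.04 (0.971 to 1.11) for Cxcl16. Cxcl10 was at 9.78 and 8.47 CPM in those cells, a ratio of 0.866 (0.734 to 1.02), the plasma-negative value including the cell with 170 UMIs. In cells with 3 or more Apoe UMIs it had 0 and 227 UMIs. Ccl2 had a ratio of 8.57 (2.87 to 42.0) there, on 3 and 142 UMIs, against 2.90 (2.31 to 3.68) at 0 Apoe. The Ccl5 ratios in the same groups were 4.89 and 5.03. Where the interferon list, Apoe, Ccl3 and Ccl4 were all at 0, a group chosen after the values were seen (5633 and 5087 cells), Ccl5 was still at a ratio of 5.87 (3.59 to 10.1) and Ccl12 at 1.38 (1.31 to 1.45). Ccl2 was at 1.21 (0.808 to 1.81) there, and Cxcl10, at 8 and 13 UMIs, had an interval of 0.611 to 4.43. The part of the interferon response, of Apoe and of the Ccl3 and Ccl4 cells in the higher chemokine levels was not tested.

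Depth and mitochondrial share also differed between the libraries and were set beside the ratios in the same way. Ccl2 had ratios of 3.49, 3.44 and 3.47 in the deeper 3 of 4 groups of cells, divided at 2000, 4000 and 8000 UMIs, and 0 against 14 UMIs in cells below 2000. Ccl12 had 2.01, 2.18, 2.07 and 2.91 from the shallowest to the deepest group, and Ccl5 2.33, 10.5, 7.40 and 27.9. Ccl9 stayed between 1.00 and 1.19, while Cxcl16 was at 0.892 (0.631 to 1.26), 1.08, 1.18 and 1.53 (1.28 to 1.85). Cxcl10 ran from 3.07 in the shallowest to 0.447 (0.128 to 1.47) in the deepest group, the last on 8 and 6 UMIs. Across 4 groups of cells by mitochondrial share, divided so that each held as many cells over both libraries, Ccl12 lay between 1.89 and 2.68 and Ccl5 between 5.99 and 13.9, while Ccl2 was at 1.16 (0.680 to 1.98) in the lowest group and at 3.60 to 4.64 in the others. Cxcl10 ran from 0.257 to 8.78 with no common direction. In the group of highest mitochondrial share it was at 0.428, and at 2.39 (1.67 to 3.51) without the highest Cxcl10 cell of each library. The part of depth and mitochondrial share in the differences was not tested.

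**Figure D5:**
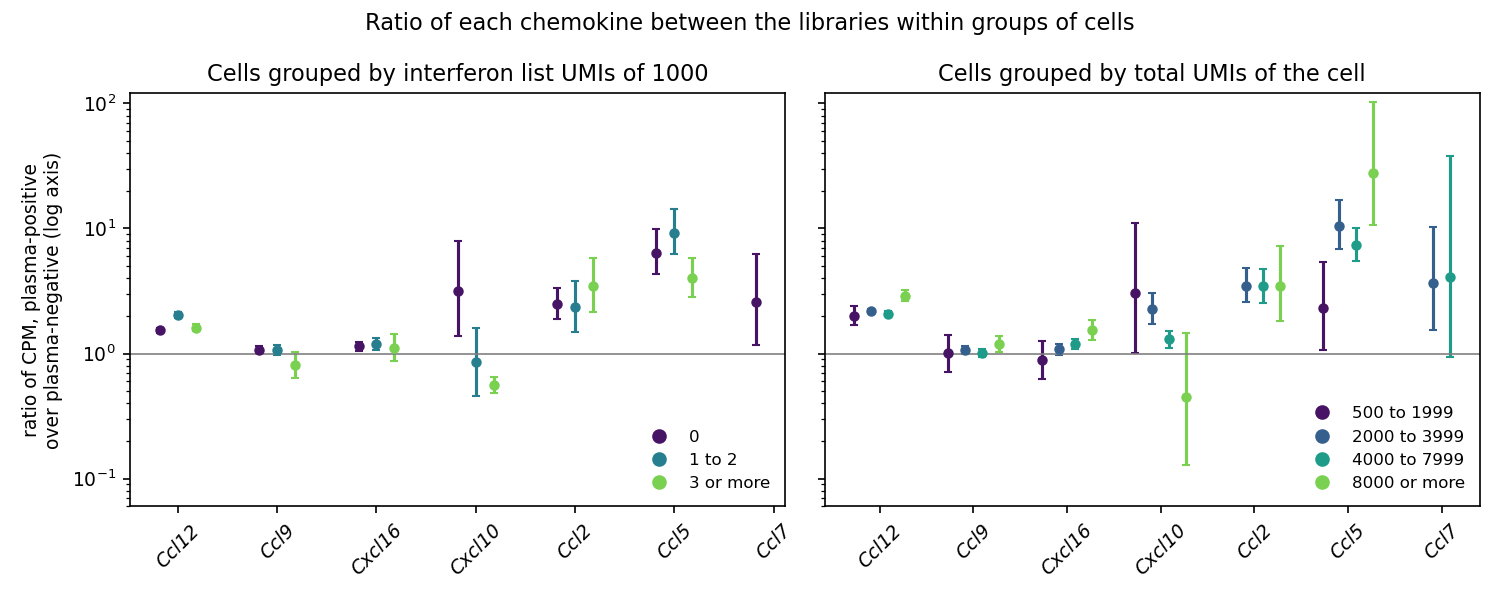
Ratio of CPM of plasma-positive over plasma-negative cells (y, log axis, exact conditional intervals) for each chemokine within groups of cells by interferon list UMIs (left) or by total UMIs (right), where a group with 0 UMIs in either library has no point. Ccl12, Ccl2 and Ccl5 lie above 1 in each group drawn, Ccl9 near 1, and Cxcl10 at 0.559 where the interferon list is 3 or more.

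The genes most like each chemokine were ranked by the lower of the 2 libraries' log2 ratios of CPM in cells with and without it, among genes with at least 20 UMIs in the positive cells of each library. For a chemokine with few positive cells, a scarce gene passes that minimum only where it is high in them, so the rankings are a description. For Cxcl10 (754 genes eligible) these were Rsad2 (6.90, shared in 6 plasma-negative and 16 plasma-positive cells), Ifit3b (5.67, in 9 and 21), Ifit1 (5.64, in 11 and 21) and Ifit2 (5.61, in 10 and 22), all interferon-induced antiviral genes. A single plasma-negative cell held 30 of the 41 Rsad2 UMIs. For Ccl2 (3562 eligible) they were Cxcl10 (6.95, in 3 and 22 cells), Ccl4 (5.32, in 8 and 32), Rsad2 (5.24, in 4 and 23) and Ifit1 (4.50, in 5 and 36). In the plasma-negative library 1 cell held 170 of the 180 Cxcl10 UMIs and 30 of the 38 Rsad2 UMIs counted there. Ccl12 (10858 eligible) was led by Cxcl10 (5.57, in 17 and 43 cells), Ifi206 (3.13), Ifit3b (2.85) and Mki67 (2.84). Mki67, a proliferation gene, was found together with Ccl12 in 16 and 39 cells. Of the 298 plasma-negative Cxcl10 UMIs in cells with Ccl12, 170 were in 1 cell. For Ccl5 (1644 eligible) they were Rsad2 (4.61, shared in 2 and 11 cells), Cxcl10 (4.53, in 2 and 10 cells), Ifit3 (3.67) and Ccl12 (1.88), which rests on few cells.

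Cxcl16 and Ccl9 were led by other genes. For Cxcl16 (10227 eligible) the first was the macrophage elastase Mmp12 (6.52, but in 4 cells of each library). Then came Cxcl10 (3.01, in 6 and 25 cells), Lgals3 (2.74, in 22 and 64 cells) and Spp1 (2.48, in 13 and 25 cells). A single plasma-negative cell held 170 of the 236 Cxcl10 UMIs counted there. No gene reached 1 for Ccl9 (10506 eligible): Ccl4 (0.98), Lgals3 (0.77), Ccl3 (0.74) and Nes (0.71). Ccl7 had 149 eligible genes, among the first of them Hsp90ab1 (0.53), Ctsc (0.47) and mt-Nd1 (0.32).

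Lists of NF-kB and inflammation genes, and of factors and proteases known to act on chemokines, had medians near equal levels in the libraries. Of 20 NF-kB and inflammation genes, 18 reached 5 CPM, and 0 were 2-fold or more higher or lower, with a median log2 ratio of -0.04. The largest differences among them were Csf1 (0.49), Nfkb2 (-0.37), Relb (-0.21) and Tnf (0.21). Below the minimum, and named after its value was seen, the cytokine gene Il1b was at 1.65 and 4.64 CPM (log2 ratio 1.49, 1.06 to 1.94). Per cell, 3 or more UMIs of the NF-kB list at 1000 UMIs were found among Ccl2-positive cells in 25% (16.0 to 35.9, plasma-negative) and 18.7% (13.7 to 24.6, plasma-positive), against 13.6% and 12.8% of the others, and in 2 of 2 and 7 of 17 cells with more than 5 Ccl2 UMIs. For Cxcl10-positive cells the shares were 26.1% (10.2 to 48.4) and 21.6% (11.3 to 35.3), against 13.7% and 12.9%. Cxcl16-positive cells differed less, at 15.9% and 14.2% against 13.3% and 12.6%. Cells with more than 5 Cxcl16 UMIs reached it in 4 of 6 and 8 of 10. Of 17 transcription factors and shedding proteases, among them Irf3 (-0.14), Irf9 (0.07), Jun (-0.18) and Adam10 (0.09), a protease known to shed CXCL16, 14 reached the minimum and none was 2-fold higher or lower, with a median of 0.01.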

How the data were processed

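UMI counts per gene and cell were deposited by the authors as matrices of called cells, with Cell Ranger 6.1.2 named per the file headers, while the submitters' processing notes name Cell Ranger 3.0.1. Genome build, annotation and use of strand are not given in the sources used here. Gene identifiers and symbols came from the deposited feature lists, and cell barcodes were not used here, so barcodes shared between the libraries were not counted. Counts were filtered per cell as stated, summed per library and divided by its total. Sums carry exact Poisson, shares exact binomial (Clopper-Pearson) and ratios exact conditional binomial intervals at 95%. No gene was tested. Doublets were kept: Scrublet (scanpy 1.11.5) by its automatic threshold marked 0 cells in either library and so did not work here, and an alternative removed the 778 and 859 highest-scoring cells (7.89% and 8.29%). GENCODE M21 gave coordinates only, for 30934 of 31053 identifiers. Genes named are the 7 chemokines, the 4 with the largest absolute log2 ratio of each list at 5 CPM or more, and the 4 most like each chemokine, apart from a few that are not reported here. Both the 7 chemokines and the lists were chosen with earlier results of these data known. Scripts were tested on simulated data (Python 3.11.15, numpy 2.4.6, scipy 1.17.1, pandas 2.3.3, matplotlib 3.10.9).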

Additional observations from a re-analysis of the deposited data

How the results depend on the processing

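Values were recomputed without the cells of highest doublet score or with markers of another cell type, with other scalings, cell limits and thinning, as means over cells and without the highest cells, 275 in all. Of these, 180 stayed within their interval (or, for counts of genes, within 1.5 times) and 95 moved. Of the 69 log2 ratios, 58 stayed, 11 moved and 0 reversed direction. A share of cells or a count of genes has no direction of its own. The difference between cells with and without a second gene could change sign with depth. At 1000 UMIs, Ccl9 was in 3.17% of plasma-positive Ccl5-positive cells against 7.59% of the others, and at 2000 in 17.9% against 14.3%. The shares of cells that moved, 21 of 42 for single genes and 49 of 144 for pairs, did so with thinning to 2000 UMIs or none, which changes the depth itself. Thinned to 1000 UMIs, Ccl7 was at 0.48, Ccl12 at 1.20, Ccl5 at 2.44 and Cxcl10 at 1.12. As means over cells of each cell's CPM, Ccl5 was at 2.91 and Cxcl16 at 0.16. Without the 10 highest cells of each library, Ccl12 was at 1.20, Ccl5 at 3.70 and Cxcl10 at 1.97, and Ccl7 had no value because no plasma-negative UMI was left. Without the 1 highest cell, a setting chosen after seeing the data, Ccl5 was at 3.62 and Cxcl10 at 1.49. Apart from the cells left out, the cause was not tested. Genes 2-fold or more higher numbered 29, and 89, 12, 3 and 799 at a mean of 1, 10 and 50 CPM and with no minimum other than 1 UMI in each library. Those 2-fold or more lower numbered 0, and 6 at 1 CPM and 564 with no minimum. Scaled by the median of ratios, or by a total without mitochondrial and ribosomal genes, Ccl2 was at 1.90 and 1.89 and Ccl9 at 0.12 in both. No paired analysis was possible because neither group held more than 1 sample and no test was run, and leaving out a replicate was not possible either. Library, sort and group cannot be told apart. Of the 7 chemokines, Ccl7 is limited by 48 UMIs in all, and Cxcl10 and Ccl5 by the few cells that hold most of their counts.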

Other observations

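Other chemokines were mostly rare in these microglia. Of 28 further chemokine genes matched, 11 were at 0 in both libraries and 6 reached a mean of 5 CPM. Ccl4 was the only 1 of the 6 at 2-fold or more, at 20.7 and 44.1 CPM in the plasma-negative and plasma-positive library (log2 ratio 1.09), and its partner Ccl3 was at 16.4 and 22.9 CPM (0.48). Ccl24 was at 8.14 and 10.8 CPM (0.41) and Ccl27a at 6.02 and 5.17 CPM (-0.22). A further 4 chemokines, named after their values were seen, had few counts in the plasma-negative library. Cxcl9, another CXCR3 ligand, had 10 UMIs in 2 plasma-negative and 171 UMIs in 10 plasma-positive cells. Cxcl13, a B cell attractant, had 1 and 69 UMIs in 1 and 10 cells. Cxcl2, a neutrophil attractant, had 13 and 107 UMIs in 1 and 13 cells, and Cxcl14 had 2 and 41 UMIs in 1 and 26 cells.

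Of 25 chemokine receptor genes, 5 reached 5 CPM and none was 2-fold or more higher or lower. Ccr1, a receptor for CCL9 and CCL5, was at 12 and 17.8 CPM (log2 ratio 0.57). Cx3cr1, the fractalkine receptor that marks microglia, was at 6543 and 5733 CPM (-0.19), and Ccrl2 at 13 and 12.4 CPM (-0.06). The receptors for CCL2, CXCL10 and CXCL16 were near the limit of detection, with 88 and 76 UMIs for Ccr2, 42 and 41 for Cxcr3, and 31 and 30 for Cxcr6.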
